A study of Mus musculus with 6 samples.

Results

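The miRNAs of resting mProx24 cells were read from the control array of a series of 6 microarrays for mouse miRNAs. mProx24 is a mouse cell line of the proximal tubule, the stretch of the kidney nephron that takes back most of the filtered salt, glucose and amino acids. Of the 1247 miRNAs with probes on the array, 214 were detected in the control cells by the scanner software's own flag, which is 17.2% of those measured. Their order by signal, their families, the arms of their hairpins and the marker miRNAs that were present or absent are described below. The members were all miRNAs on that array, and no measured value was used to choose among them. The array itself and the lists of families and markers were chosen with earlier results of these data known.

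The control culture is labelled with 20% oxygen, "NG" and "PBS", abbreviations that the labels do not spell out. The other 5 arrays hold the same line under high glucose, under high FFAs (free fatty acids, given as 150 µM palmitate on 0.15% albumin for 9 h), under hypoxia (1% O2 for 12 h), under the 3 stimuli together (triple stimuli), and under triple stimuli after 12 h with 0.4 µg/ml rapamycin, an inhibitor of the mTOR kinase. All 6 cultures share the strain background C57B6 and the same serum-containing medium, and 100 ng of total RNA per culture was labelled with Cy3. There was 1 array per condition, so no value below has a replicate error and no test was made. The error given after ± is the software's own error of a miRNA's summed signal, which covers the spread of spots within the array only. The other 5 arrays are other conditions and not replicates, and they are given only for comparison. In the deposited value table the columns of high glucose and high FFAs hold the data of each other's scanner file. Which assignment is right cannot be settled from the files, so "under high glucose" and "under high FFAs" below mean the scanner files deposited under those names, and each such pair of values may belong the other way round. The control column matched its own file, and ranges over the other 5 arrays are not touched.

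A miRNA is a short RNA cut from a hairpin precursor. Either side of the hairpin, the 5p or the 3p arm, can be loaded into an Argonaute protein, where it finds target mRNAs mainly through its seed, the bases near its 5′ end, and lowers their translation and stability. miRNAs with the same seed form a family with largely shared targets. Kidney tubules are known for the miR-30 family, miR-10a, miR-10b, miR-192, miR-194 and miR-204, and epithelia in general for the miR-200 family, which represses the transcription factors Zeb1 and Zeb2.

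The sequences of the miRNAs that carried most of the signal are printed first, because the order below rests on them. They are RefSeq's mature sequences for build GRCm38.p6, 5′ to 3′, with the seed (bases 2 to 8) in capitals.
miR-6366: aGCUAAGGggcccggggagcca
miR-3963: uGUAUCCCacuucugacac
miR-494-3p: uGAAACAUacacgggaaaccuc
miR-21a-5p: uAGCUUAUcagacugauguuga
miR-125b-5p: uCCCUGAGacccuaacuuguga
miR-1224-5p: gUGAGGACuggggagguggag
miR-3968: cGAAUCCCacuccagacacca
miR-5100: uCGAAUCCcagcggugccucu

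miR-6366 lies on the minus strand at chr16:18165093-18165114 and miR-3963 on the minus strand at chr3:151023839-151023857, and neither lies inside the span of another gene in the RefSeq gene table. miR-494-3p, at chr12:109715367-109715388 on the plus strand, comes from a large cluster of hairpins known for its imprinting. miR-21a-5p, a miRNA known for its induction in injured and fibrotic kidney, lies at chr11:86584120-86584141 on the minus strand, within the span of the protein-coding gene Vmp1. miR-1224-5p, known as a mirtron, that is a hairpin formed by a spliced intron, lies at chr16:20604452-20604472 on the plus strand within the span of Vwa5b2. The gene table gives no exons, so exonic and intronic positions were not told apart. miR-125b-5p, the mammalian relative of the worm lin-4 RNA, has 2 hairpin genes with identical products, at chr9:41581940-41581961 and chr16:77646279-77646300, both on the plus strand. miR-3968 lies at chr11:115447969-115447989 on the minus strand within the span of Trim80, and miR-5100 at chr11:60728698-60728718 on the plus strand within that of Mief2.

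The 9 let-7 miRNAs are shown together because they were the family with the largest share of the signal of any in the family lists. The let-7 family is known for holding back growth and early developmental genes such as Hmga2, Lin28 and Ras.
let-7a-5p: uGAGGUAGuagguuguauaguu
let-7b-5p: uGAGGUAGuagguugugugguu
let-7c-5p: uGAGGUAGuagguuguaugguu
let-7d-5p: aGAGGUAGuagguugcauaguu
let-7e-5p: uGAGGUAGgagguuguauaguu
let-7f-5p: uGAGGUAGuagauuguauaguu
let-7g-5p: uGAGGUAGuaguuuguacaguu
let-7i-5p: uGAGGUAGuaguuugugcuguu
miR-98-5p: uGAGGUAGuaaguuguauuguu

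All 9 carry the seed GAGGUAG. let-7f-5p comes from 2 genes, at chr13:48537889-48537910 on the minus strand and at chrX:151912353-151912374 on the plus strand within the span of Huwe1, and the copy on chromosome 13 neighbours let-7a-5p (chr13:48538239-48538260) and let-7d-5p (chr13:48536078-48536099). A further let-7a hairpin lies beside that of miR-100 on chromosome 9, so the let-7a-5p signal cannot be assigned to chromosome 13 alone. Compared base by base with let-7a-5p, let-7c-5p, let-7e-5p and let-7f-5p differ at 1 base, let-7b-5p, let-7d-5p, let-7g-5p and miR-98-5p at 2, and let-7i-5p at 4. Probes for sequences this alike can bind each other's targets, which was not tested.

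The signal of the control array was concentrated in few miRNAs. The software's summed signals of the 214 detected miRNAs added up to 50463 intensity units, of which the brightest miRNA held 25.9%, the 4 brightest 56.5%, the 10 brightest 69.1% (software error 0.826 percentage points) and the 100 brightest 97.3%. It took 3 miRNAs to reach 50% of the signal, 15 to reach 75%, 41 to reach 90% and 148 to reach 99%. The median detected miRNA had a summed signal of 26.7. The concentration was similar or a little lower elsewhere: the same 4 miRNAs held 49.0% to 54.1% of the signal on the other 5 arrays, and the 10 brightest of each held 64.1% to 68.1%.

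**Figure D1:**
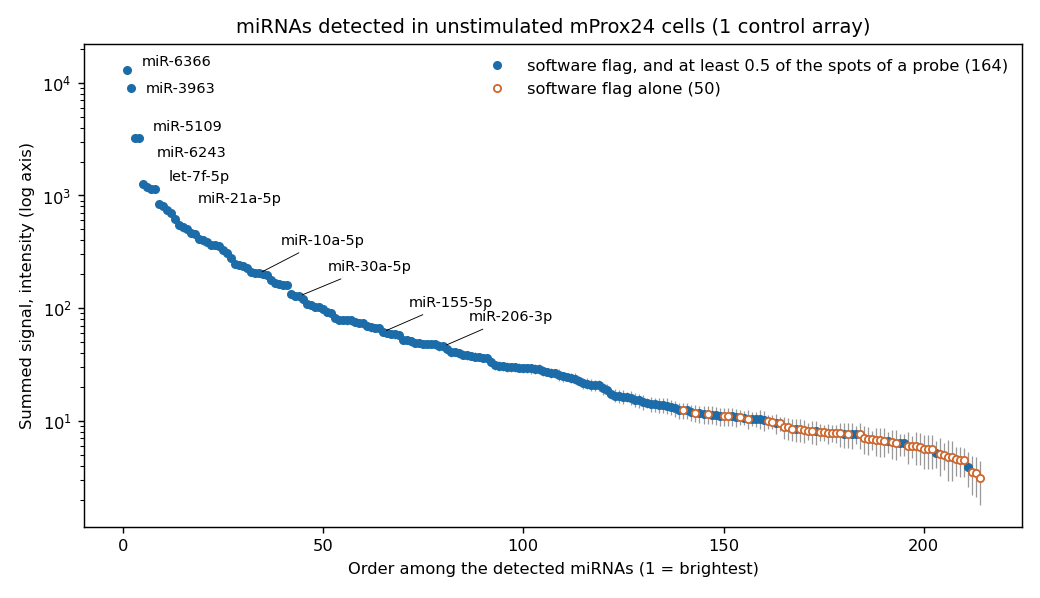
Summed signal (intensity, log axis) of each of the 214 detected miRNAs of the control array against its place in the order, with the software's error as vertical lines. Filled points are the 164 miRNAs for which at least 0.5 of the spots of a probe were also well above background, and open points the 50 that carried the software's flag alone. miR-6366 and miR-3963 are the highest points, and the open points all lie at or below 12.5.

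The 4 brightest were miR-6366 at 13059 ± 1019.6, miR-3963 at 9040.1 ± 706, miR-5109 at 3233 ± 234 and miR-6243 at 3203 ± 229.5. The next signal, that of let-7f-5p, was 1253 ± 94.7. miR-5109 and miR-6243 differed by less than either error, and their order is not settled by these data. None of the 4 belongs to a long-studied family, and no role is given for them here. Whether other RNAs add to the signal of their probes was not tested.

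The probes that read these 4 are shown because the signals rest on them alone. They are DNA as deposited, 5′ to 3′, and for miR-6366 and miR-3963 they are complementary to the 3′ end of the RNA printed above. miR-5109 and miR-6243 are named without a mature sequence, and the deposited mapping puts their probes on chromosomes 5 and 1.
miR-6366, longer probe: TGGCTCCCCGGG
miR-6366, shorter probe: TGGCTCCCCGG
miR-3963, longer probe: GTGTCAGAAGTGGGAT
miR-3963, shorter probe: GTGTCAGAAGTGGGA
miR-5109, longer probe: TCGGATTCCCCTGG
miR-5109, shorter probe: TCGGATTCCCCTG
miR-6243, longer probe: CGTTCAGTCATAATCCC
miR-6243, shorter probe: CGTTCAGTCATAATCC

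The pair of miR-6366 probes, 12 and 11 bases long, read 12338 ± 679 (SD over 20 spots) and 33850 ± 1476 (SD over 16 spots), so the shorter probe was the brighter by 2.74-fold. The pair of miR-3963 probes, 16 and 15 bases long, read 23428 ± 1459 (17 spots) and 8545 ± 626 (20 spots), and here the longer probe was the brighter, again by 2.74-fold. For miR-5109 the longer probe was 1.54-fold brighter, and for miR-6243 1.38-fold. The probes of 1 miRNA differed by a median of 1.63-fold over 164 miRNAs, by 4.45-fold at the 90th percentile, and by up to 18.3-fold for miR-3968. Signals of different miRNAs also depend on probe and labelling, so the order given here is one of array signal and not of molecules per cell. A difference of a few-fold between 2 miRNAs is within what probes of 1 miRNA show.

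Below the 4 brightest, the order was led by let-7 members and by miRNAs well known from cultured cells. miR-494-3p read 1178 ± 87.4, miR-21a-5p 1151 ± 82.8 and let-7a-5p 1130.5 ± 82.9. These 3 and let-7f-5p differed from each other by less than 2 of their errors. let-7c-5p (835 ± 61.4) and let-7b-5p (809.9 ± 58.2) completed the 10 brightest. miR-125b-5p followed at 744 ± 60.0 and miR-1224-5p at 700.2 ± 53.2.

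The places from 13 to 25 went to miR-1949, let-7d-5p, miR-3968, let-7i-5p, miR-3096b-3p, miR-709, miR-23a-3p, miR-5100, miR-15b-5p, let-7e-5p, miR-31-5p, miR-29a-3p and miR-3473b, with signals of 614 to 327. Among them, miR-23a-3p comes from a cluster it shares with miR-27a and miR-24, miR-15b-5p belongs to a family that restrains the cell cycle and the survival factor Bcl2, and miR-29a-3p to one that represses collagens and other matrix genes. All 25 had every spot of a probe well above background, and their median software error was 7.36% of the signal.

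This order was largely shared with the stimulated cells. miR-6366 was brightest and miR-3963 next on all 6 arrays. In the control cells miR-6366 read 13059, against 14976 under high glucose, 8042 under high FFAs, 12901 under hypoxia, 14105 under triple stimuli and 12258 under triple stimuli with rapamycin. The control value thus lay inside the range of the others. Of the control array's 25 brightest miRNAs, 22 were among the 25 brightest on every other array, and 8 of its 10 brightest were among the 10 brightest on every other. Over the 195 miRNAs detected on all 6 arrays, Spearman's correlation of the control signals with those of another array was 0.962 to 0.992. That is a description over miRNAs that share the same probes, and not a test.

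let-7f-5p read 1253 in the control cells, against 1567 under high glucose, 1360 under high FFAs, 1426 under hypoxia, 1481 under triple stimuli and 1536 under triple stimuli with rapamycin. miR-21a-5p read 1151 in the control cells, against 1668 under high glucose, 1172 under high FFAs, 1440 under hypoxia, 1634 under triple stimuli and 1581 under triple stimuli with rapamycin. Both were lowest in the control cells, but summed signals were not scaled between arrays, and the total over detected miRNAs was 50463 in control cells and 44550 to 62847 on the other arrays.

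As a share of the signal of its array, miR-21a-5p held 2.28% in the control cells against 2.63% to 2.80% on the other 5. With the 4 brightest miRNAs left out of the totals it lay inside the range of the others. The share of miR-6366 was 25.9% in the control cells against 18.1% to 24.9%. Of 195 miRNAs with the flag on every array, 11 had a control share above all 5 others (5.64%) and 43 a control share below all 5 (22.1%). Without the 4 brightest in the totals the balance turned, with 51 of 191 above (26.7%) and 24 below (12.6%). On both scalings, 10 miRNAs were above and 24 below. With 1 array per condition these positions have no error.

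**Figure D2:**
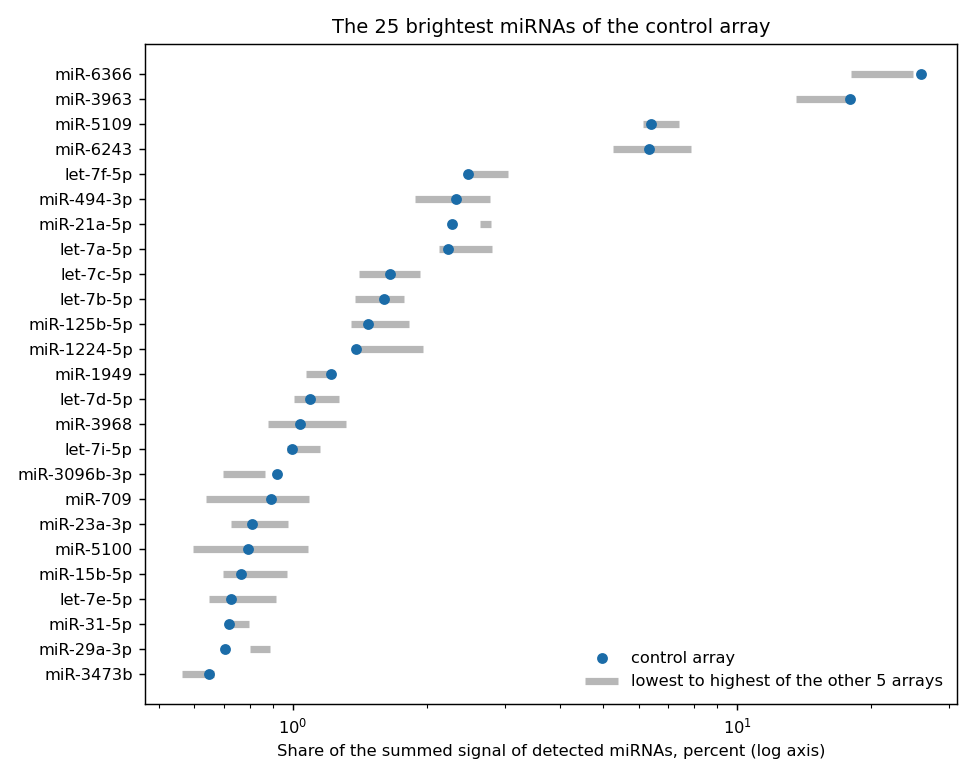
Share of the summed signal of detected miRNAs (percent, log axis) for the 25 brightest miRNAs of the control array, in order of signal from the top. Points are the control array, and grey bars run from the lowest to the highest of the other 5 arrays. miR-6366 lies above its bar at 25.9%, and miR-21a-5p, at 2.28%, and miR-29a-3p below theirs.

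Of the 24 miRNAs that were lowest in the control cells on both scalings, miR-5126 and miR-2861 are described because of their wide range, and were chosen after their values were seen. No role is given for either here. miR-5126 had a signal of 309.8 in the control cells, against 2070.2 under high glucose, 348 under high FFAs, 441 under hypoxia, 920 under triple stimuli and 1561 under triple stimuli with rapamycin. It stood at place 26 in control cells and at places 5 to 24 elsewhere. miR-2861 read 66.7 in control cells, against 346 under high glucose, 73.8 under high FFAs, 89.6 under hypoxia, 169 under triple stimuli and 276 under triple stimuli with rapamycin. For both, the array filed under high FFAs was the nearest to the control and the array filed under high glucose the highest, and the value table names these 2 conditions the other way round. miR-29a-3p and miR-29c-3p, of the matrix-repressing miR-29 family, and miR-98-5p of the let-7 family were also among the 24.

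The families below are lists of well-known members and do not hold every miRNA on the array that shares a seed. The 29 family lists held 23 families with at least 1 detected member and 6 with none. Together they took 23.1% of the signal. The let-7 family had 9 of 9 listed members detected, with signals of 48.0 ± 3.93 (miR-98-5p) to 1253 (let-7f-5p), and held 11.2 ± 0.324% of the signal. By seed alone, 11 miRNAs on the array carry GAGGUAG, and the other 2, let-7k (-0.289) and miR-1961 (-2.27), were not detected. That share was 10.5% to 13.4% on the other arrays. Among the miRNAs left after the 4 brightest were set aside, let-7 held 25.8% in control cells, against 22.8% to 26.6% on the others.

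Next in share came the miR-125, miR-15/miR-16, miR-17 and miR-29 families, but the place of the miR-29 family is not settled. The miR-23 family held 0.923 ± 0.0640%, less than 1 error from the 0.947% of the miR-29 family. It was ahead by the brightest probe (1.00% against 0.909%) and with normexp background correction (0.994% against 0.961%). The miR-125 family held 1.86 ± 0.122%, from miR-125b-5p and miR-125a-5p (196 ± 14.2), with miR-351-5p not detected. The miR-15/miR-16 family held 1.45 ± 0.0692% with 4 of 7 members detected. miR-15b-5p (386 ± 27.4) and miR-16-5p (278 ± 21.1), encoded side by side on chromosome 3 within the span of Smc4, with a further copy of miR-16 on chromosome 14, were its brightest, followed by miR-15a-5p (36.3) and miR-322-5p (31.5).

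The sequences of this pair show the shared seed.
miR-15b-5p: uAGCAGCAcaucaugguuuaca
miR-16-5p: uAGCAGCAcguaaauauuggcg

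The miR-17 family, which promotes proliferation, had 5 of 5 listed members on the array detected and 1.17 ± 0.0481% of the signal. A further miRNA with its seed, miR-6383 (-1.17), was not detected. Its brightest were miR-93-5p (242 ± 18.8) and miR-20a-5p (161 ± 12.0), and its dimmest miR-17-5p (14.7 ± 2.18). The miR-29 family, with 3 of 3 detected, held 0.947 ± 0.0540%, and miR-29a-3p (354 ± 26.2) outshone miR-29b-3p (74.4) and miR-29c-3p (49.0). Its share was below that of the other 5 arrays (1.06% to 1.19%), and remained so without the 4 brightest miRNAs, at 2.18% against 2.22% to 2.41%. With 1 array per condition that margin has no replicate error, and it was not tested.

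Families with every listed member detected included miR-23, miR-27, miR-26, miR-103/miR-107, miR-99/miR-100, miR-10, miR-196, miR-221/miR-222, miR-19, miR-132/miR-212 and miR-30. Among these, miR-100-5p (7.61 ± 1.95) and miR-132-3p (6.69 ± 1.90) carried the software's flag alone, with 9 and 2 of 40 spots well above background. miR-24-3p, the only listed member of its family, read 210.9 ± 15.1. miR-103-3p (169 ± 12.3) and miR-107-3p (99.2 ± 7.91), each encoded within the span of a pantothenate kinase gene were both present. miR-221-3p (103 ± 7.62) and miR-222-3p (52.5), known for repressing the cell cycle inhibitor p27, were detected too. So were the Hox-linked miR-196a-5p (177 ± 9.18) and miR-196b-5p (52.8).

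Other families were detected in part. miR-34a-5p (205 ± 14.9), a known p53 target, was the only detected member of the 6 in the miR-34/miR-449 family, whose other members mark ciliated cells. miR-25-3p (245 ± 18.3) and miR-92a-3p (163 ± 12.4) were the detected members of their family of 5. miR-130a-3p (132 ± 9.60) outweighed miR-301a-3p (8.10), while miR-130b-3p and miR-301b-3p were not detected. The miR-181 family, known from lymphocytes and brain, was weak, with 3 of 4 detected at 6.78 to 16.2. miR-18a-5p (24.8 ± 2.56) was detected and its relative miR-18b-5p was not. In the miR-148/miR-152 family, 1 of 3 was detected, miR-152-3p at 6.74 ± 1.90.

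The 6 families with no detected member were miR-200b/miR-200c/miR-429, miR-141/miR-200a, miR-146, miR-101, miR-192/miR-215 and miR-204/miR-211. All 14 of their members had signals within 2 software errors of 0. They were also undetected on all 5 other arrays.

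**Figure D3:**
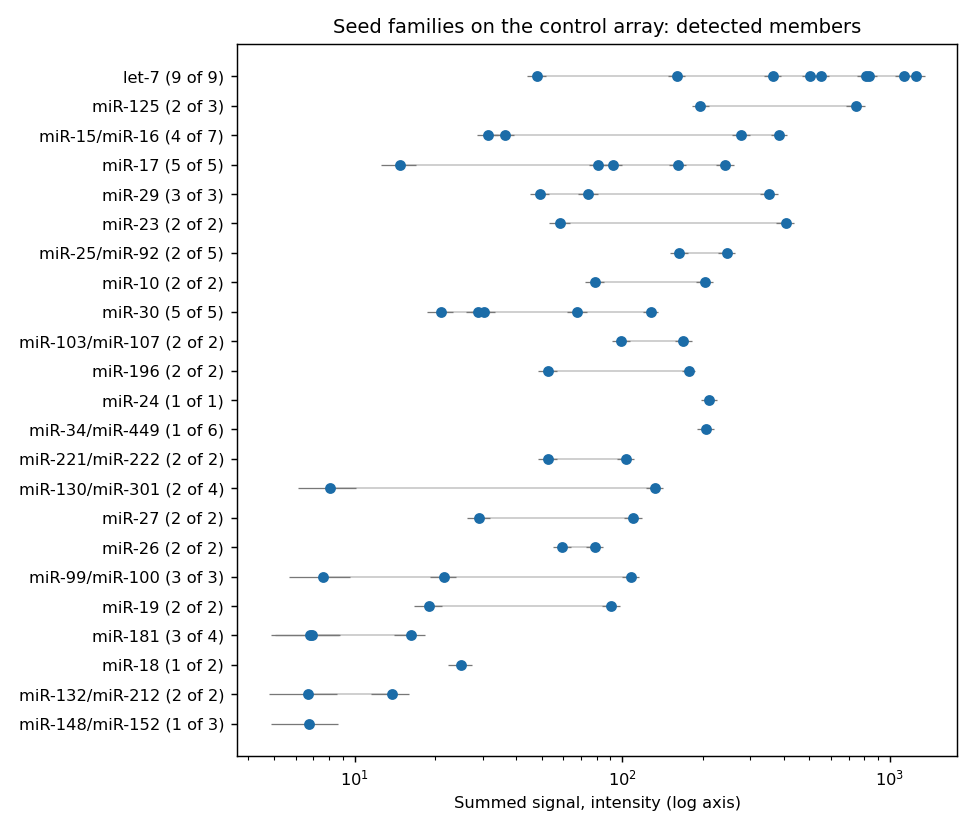
Summed signal (intensity, log axis) of each detected member of the 23 seed families with at least 1 detected member, ordered by the family's share of the signal from the top. Points are miRNAs, horizontal lines through them are the software's error, and the counts beside each name are detected members of the listed ones on the array. let-7 has 9 of 9 listed members, most of them among the brightest points.

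Of the 178 detected miRNAs matched to a RefSeq mature sequence (1017 of the 1247 on the array were matched), 58 shared 1 of 21 seeds with another detected miRNA, and the rest had seeds of their own, 141 seeds in all. The first base was U in 43.8% of the detected and in 34.9% of the undetected miRNAs, and in 65% of the 20 with a sequence among the 25 brightest. A 5′ U is known to favour loading into Argonaute. miRNAs numbered 1000 or above, which were named later and are less studied, made up 64 of the 214 detected and 449 of the 1247 on the array. They carried 66.6% of the signal, and 10 of the 25 brightest were of this kind. The higher share of a first U in detected miRNAs held only for lower numbers, at 48.9% against 31.9% of the undetected. For those numbered 1000 or above it was reversed, at 28.9% of the detected against 39.9% of the undetected. These shares were not tested.

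The detected miRNAs numbered 1000 or above had a median GC content of 63.6%, against 52.4% in the undetected ones of the same class and 47.8% in detected miRNAs with lower numbers. Their median shortest probe was 13 bases, against 17 bases in the detected miRNAs with lower numbers. Over the detected miRNAs, Spearman's correlation of signal was -0.25 with GC content (178 miRNAs with a sequence) and 0.27 with the length of the shortest probe (214 miRNAs), both weak. These describe miRNAs of 1 array and were not tested. Seen after the values, miR-3963, miR-3968 and miR-5100 shared the 6 bases AUCCCA at or next to the seed. These letters occur in 3 detected miRNAs and in 1 undetected miRNA, miR-191-5p, among the 1017 with a sequence. The 3 read 9040.1, 523 ± 49.9 and 401 ± 36.6.

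The kidney tubule list held 12 miRNAs, of which 7 were detected, against 17.2% of all miRNAs on the array. All 5 members of the miR-30 family were present: miR-30a-5p at 128 ± 8.18, miR-30c-5p at 67.9 ± 6.0, miR-30b-5p at 30.4 ± 3.14, miR-30e-5p at 28.9 ± 2.94 and miR-30d-5p at 21.0 ± 2.36. The miR-30 family is abundant in kidney and is known to be needed for kidney development in frogs. The Hox-cluster miRNAs miR-10a-5p (204 ± 15.2) and miR-10b-5p (78.8 ± 6.32) were the other detected members. miR-10a-5p was the highest kidney marker, at place 34 of the order.

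The undetected kidney markers were miR-204-5p (0.910), miR-192-5p (3.25 ± 1.84), miR-146b-5p (1.27), miR-194-5p (0.819) and miR-215-5p (-0.159). The call for miR-192-5p depends on the rule. Its signal was above that of the dimmest detected miRNA, miR-15b-3p (3.13), and its brightest probe (6.27) was above the highest negative control mean (5.96). miR-192 and miR-194 share a hairpin cluster and are known as strong kidney and gut miRNAs under control of the Hnf1 factors, and miR-204 is abundant in tubule and retinal epithelium. These 5 stayed undetected on all other arrays too. Of the 12 kidney markers, 7 were thus detected, all of the miR-30 and miR-10 families, and the other 5 were not. Because the list was chosen with earlier results of these data known, its count says nothing on the identity of the line. The sequences of both kinds are shown, with the present ones first and the pan-epithelial miR-200b and miR-200c last. miR-30a-5p lies at chr1:23272274-23272295 on the plus strand outside other genes, miR-10a-5p at chr11:96317186-96317208 on the plus strand within the span of Hoxb3, and miR-192-5p at chr19:6264857-6264877 on the plus strand.
miR-30a-5p: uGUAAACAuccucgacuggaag
miR-30c-5p: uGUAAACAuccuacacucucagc
miR-30e-5p: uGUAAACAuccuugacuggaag
miR-10a-5p: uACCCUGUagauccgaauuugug
miR-10b-5p: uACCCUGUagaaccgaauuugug
miR-192-5p: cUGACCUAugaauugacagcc
miR-194-5p: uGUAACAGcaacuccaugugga
miR-204-5p: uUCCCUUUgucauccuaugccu
miR-200b-3p: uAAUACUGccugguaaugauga
miR-200c-3p: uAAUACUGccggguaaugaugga

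The pan-epithelial list was empty. None of its 7 miRNAs was detected, a count that says little by itself with 17.2% of all miRNAs on the array detected. Their signals ran from -0.694 (miR-141-3p) to 0.617 (miR-429-3p), each within 2 errors of 0. miR-200a-3p, miR-200b-3p, miR-200c-3p and the skin-type miRNAs miR-203-3p and miR-205-5p lay between these values. None was detected on any other array. All 3 miRNAs of the cluster known from sensory epithelium, which are encoded together on chromosome 6, were present. miR-182-5p read 78.2 ± 6.57, miR-96-5p 40.0 ± 3.42 and miR-183-5p 28.0 ± 2.77.

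Lists of markers of other cell types were measured as well. With 17.2% of all miRNAs on the array detected, counts of 0 or 1 in lists this short are near that share and say little by themselves, and the signals are given for that reason. Of the blood miRNAs 0 of 6 were detected, and the highest, the myeloid miR-223-3p, read 7.07 ± 1.90, the brightest undetected signal on the array. The erythroid miR-451a (0.937) and the lymphoid miR-150-5p (-0.766) were near 0. Of the endothelial miRNAs 0 of 2 were detected, with miR-126-3p at 0.819. Of the fibroblast and smooth muscle miRNAs 0 of 6 were detected, with miR-143-3p at -1.10 and miR-145a-5p at -0.206, and none was over 0.153. The hepatocyte miRNA miR-122-5p (-1.15) and the endocrine miRNA miR-375-3p (-1.23) were not detected.

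The muscle list had 1 of 7 detected. This was miR-206-3p, a miRNA known from skeletal muscle, at 45.9 ± 3.77, with all 40 of its spots well above background. It read 45.9 in control cells, against 46.4 under high glucose, 46.1 under high FFAs, 49.8 under hypoxia, 53.2 under triple stimuli and 52.2 under triple stimuli with rapamycin, and so was present throughout. Its relatives miR-1a-3p (-1.58) and miR-133b-3p (0.606), of which miR-133b is encoded next to it, were not detected, nor were miR-133a-3p, miR-208a-3p, miR-208b-3p and miR-499-5p. Of the neuronal miRNAs 1 of 8 was detected, miR-128-3p at 6.47 ± 1.89. Of the embryonic stem cell miRNAs 1 of 13 was, miR-290-3p at 8.06 ± 1.36. Neither of these was well above background in at least 0.5 of the spots of a probe.

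**Figure D4:**
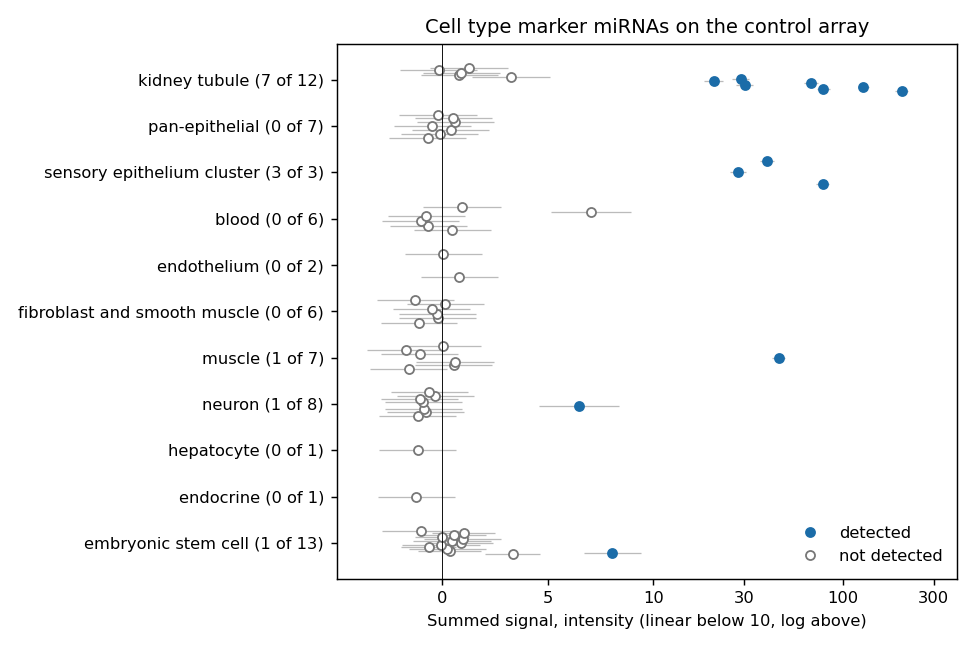
Summed signal (intensity, linear below 10 and log above) of the miRNAs of 11 marker lists on the control array, with the software's error as horizontal lines and the detected number of those on the array beside each list. Filled points were detected and open points were not. The kidney tubule list splits into 7 filled points and 5 open ones, the highest of them miR-192-5p at 3.25, and the pan-epithelial list is near 0 throughout.

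A list of miRNAs known from stress and injury had 5 of 6 detected in the unstimulated cells, against 17.2% of all miRNAs on the array. The list was chosen with earlier results of these data known, so its count supports nothing by itself. miR-21a-5p, at place 7, and miR-31-5p (362 ± 26.1), at place 23, were the brightest, followed by miR-34a-5p and by miR-155-5p (61.7 ± 5.23), which is known from activated immune cells. miR-146a-5p, a target of NF-kB, read 0.0531 and was not detected. miR-210-3p, a target of the hypoxia-inducible factor, stood at the edge of detection at 10.5 ± 1.99, with 9 of 40 spots well above background. Against this control value, it read 12.3 under high glucose and 9.57 under high FFAs, and 130.4 under hypoxia, 108 under triple stimuli and 112 under triple stimuli with rapamycin. The control value lay between those under high glucose and high FFAs, also kept at 20% oxygen, and the 3 cultures at 1% oxygen read higher. These are single arrays of different conditions and not replicates of an oxygen level. How many other miRNAs divide the arrays in this way was not counted, and the difference was not tested.

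Both arms had probes for 422 hairpins. In the control cells both arms were detected for 21 of these, the 5p arm alone for 54, the 3p arm alone for 53 and neither for 294. Where both were seen, the arms were 2-fold or more apart in 18 hairpins, with the 5p arm brighter in 14 and the 3p arm in 4. The median ratio of the brighter over the dimmer arm was 7.55 over all 21. The widest gaps were those of miR-15b (386 ± 27.4 on the 5p and 3.13 ± 1.32 on the 3p arm), let-7b (809.9 on the 5p and 10.5 ± 1.40 on the 3p arm), miR-3096b (10.2 ± 1.99 on the 5p and 465 ± 34.2 on the 3p arm) and miR-10a (204 on the 5p and 4.61 ± 1.33 on the 3p arm). The dim arms of miR-15b and miR-10a had 2 of 40 spots well above background, so the size of these gaps is not given as a fold.

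The 4 hairpins with a brighter 3p arm were miR-3096b, miR-22 (13.6 ± 2.04-fold), miR-5117 and miR-1897. miR-22-3p read 229 ± 16.7 against 16.8 ± 2.21 for miR-22-5p. The arms of miR-652 were about equal, at 40.9 ± 3.44 for 5p and 38.9 ± 3.54 for 3p, and those of miR-17 (1.54 ± 0.389-fold) and miR-140 (1.74 ± 0.349-fold) were less than 2-fold apart. With a median gap of 1.63-fold between probes of the same miRNA, no order of arms is drawn for these 3. The 5p arms of miR-324, miR-30e, miR-28a, miR-532 and miR-149 were brighter by 2.01-fold to 4.29-fold. Probes of 1 miRNA differed by 4.45-fold at the 90th percentile, so the order in these hairpins is not settled either.

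**Figure D5:**
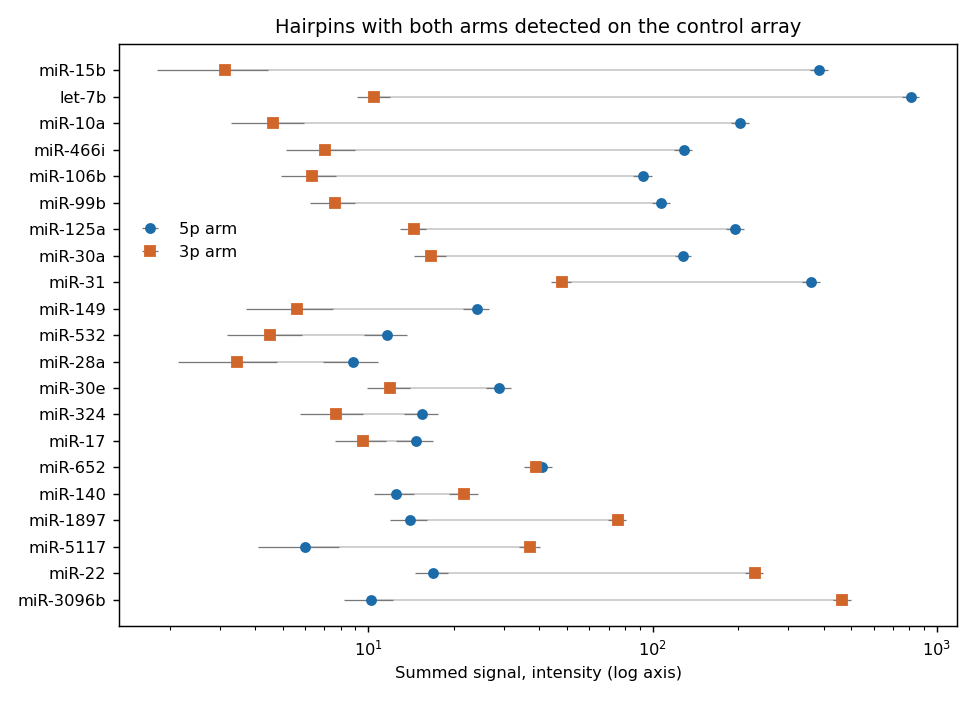
Summed signal (intensity, log axis) of the 5p arm (circles) and the 3p arm (squares) of the 21 hairpins with both arms detected on the control array, with the software's error as horizontal lines. Hairpins are ordered by the ratio of 5p over 3p from the top. The 5p arm lies well to the right in the upper rows and the 3p arm in the 4 rows at the bottom, while the arms of miR-17, miR-652 and miR-140 lie less than 2-fold apart.

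Hairpins that lie close together are often cut from 1 transcript. Clusters were formed from RefSeq positions with a gap of at most 10000 bases, and a few well-known ones are given here. Several products are encoded at more than 1 place, such as miR-19b-3p and miR-92a-3p (chromosomes 14 and X) and miR-24-3p (chromosomes 8 and 13), and an array signal cannot be assigned to 1 of them. A hairpin is counted as detected where a product matched to it by RefSeq was. In this sense 34 of the 54 clusters with 2 or more hairpins on the array had at least 1 hairpin detected. Every hairpin was detected in 19 of them, so complete clusters were not rare. A detected product without a match to a hairpin is missed by this count. The hairpins of miR-23b on chromosome 13 and of let-7a-2 on chromosome 9 thus count as undetected, though miR-23b-3p read 58.4 ± 5.04 and let-7a-5p 1130.5 ± 82.9. The miR-17/miR-92 cluster on chromosome 14 had 6 of 6 hairpins detected, with signals from 14.7 (miR-17-5p) to 163 (miR-92a-3p) among the main arms. The miR-106b/miR-25 cluster on chromosome 5, within the span of the replication gene Mcm7, had 3 of 3, led by miR-25-3p and miR-93-5p. The clusters of miR-23a, miR-27a and miR-24 on chromosome 8 (407, 109.6 and 210.9), of let-7a, let-7f and let-7d on chromosome 13, and of miR-182, miR-96 and miR-183 on chromosome 6 also had every hairpin detected in this sense.

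In other clusters few hairpins were detected. For comparison, 128 of the 422 hairpins with probes for both arms had at least 1 arm detected. In the imprinted cluster on chromosome 12, 2 of 36 hairpins were detected, of which miR-494-3p is among the brightest miRNAs of the array and the other, miR-3072-5p, read 30.0 ± 2.89. Outside the 10000-base limit but in the same imprinted region, miR-1906 (48.6 ± 3.93, also encoded on chromosome X), miR-370-3p (14.1 ± 2.09), miR-3544-3p (8.56 ± 1.93) and miR-770-3p (5.22 ± 1.37) were detected. The clusters of miR-370, miR-3544 and miR-770 had 1 of 3, 1 of 2 and 1 of 12 hairpins on the array detected. miR-3544-3p carried the software's flag alone, with 4 of 40 spots well above background. Of the 12 arms listed for the stem cell cluster miR-290/miR-295, miR-290-3p was the only one detected, and miR-291b-5p (6.03 ± 1.34), which lies in the same cluster but not in the list, was detected as well. Of the 178 detected miRNAs with a position, 131 lay inside the span of another gene, and 103 inside that of a protein-coding gene. Both counts are for detected miRNAs only and were not compared with undetected ones, so they show no trait of the detected.

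At the lower edge, calling a miRNA present depended on the rule. The dimmest detected miRNAs were miR-15b-3p (3.13 ± 1.32), miR-28a-3p (3.46), miR-450a-2-3p (3.53), miR-706 (3.93) and miR-466f-3p (4.50). The brightest undetected ones were miR-223-3p (7.07), miR-1231-5p (6.75), miR-6402 (5.77), miR-5131 (5.72) and miR-3102-3p.2-3p (5.60), so the sides overlapped. For 164 miRNAs (13.2%) at least 0.5 of the spots of a probe were well above background, and all of these carried the flag. The 50 with the flag alone had signals up to 12.5 and held 0.731% of the summed signal. A signal of over 5 times its error was found for 171 miRNAs (13.7%).

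The mean of the brightest probe was above that of every negative control sequence of the array for 290 miRNAs (23.3%), which included all 214. The undetected miRNAs had a median signal of -0.344, with a median error of 1.82. The flag marked 214 miRNAs in the control cells and 206 to 228 on the other arrays, and 195 of the 214 were detected on all 6. None was detected in the control cells alone, and none on all 5 other arrays but not in the control cells. A further 26 were detected on at least 1 other array only.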

How the data were processed

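Scans were turned into spot values by Agilent Feature Extraction 10.7.3.1, per the submitters' processing notes. The deposited scanner files give processed spot intensity and a summed intensity per miRNA on a linear scale, background-subtracted and not normalized between arrays, per the file headers. The authors' deposited value table holds a linear signal per miRNA; its control column equals the scanner values divided by a constant of 21.1 within 0.1% for 68.7% of its 214 miRNAs above the floor. The origin of that constant was not stated in the labels or headers. The column of high glucose matched the scanner file of high FFAs (70.9%) and that of high FFAs the scanner file of high glucose (70.6%). Conditions here follow the scanner files.

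Control spots were left out, leaving 49880 spots and 3105 probes, with 40 spots per miRNA. No miRNA spot was saturated, 4.26% of the spots of the control array carried an outlier flag, and 11.5% were well above background. Each miRNA's summed signal, its error and the detection flag were read once per miRNA. Shares are of the summed signal of the detected miRNAs. Alternatives used other detection rules, the brightest probe, normexp background correction (offset 50), the value table, other denominators and odd or even spots. The scripts were tested on simulated data. Python 3.11.15, pandas 2.3.3, R 4.3.3 and limma 3.58.1 were used. Sequences and positions are RefSeq's (GRCm38.p6).

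The number of arrays limits the precision, and depth per sample does not apply to an array. The text names the 25 brightest miRNAs, the members of the fixed lists, hairpins with both arms detected, and miRNAs at the edge of detection; others are said to be named after their values were seen. The lists were 29 seed families, 11 cell type marker lists, 5 hairpin clusters and a stress list, and they and the array described were chosen with earlier results of these data known. Of the clusters, miR-322/miR-503 had 2 of 9 listed arms detected and miR-106a/miR-363 had 1 of 3. The comparison with the range of the other 5 arrays, the AUCCCA letters, the negative control rule and the totals without the 4 brightest miRNAs were chosen after seeing the data.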

Additional observations from a re-analysis of the deposited data

How the results depend on the processing

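No paired analysis was possible because each condition has 1 array and no result comes from a test; for the same reason no replicate could be left out. The number of detected miRNAs was 133 where all spots of a probe had to be well above background, against 214 as reported. The share of the 10 brightest, 69.1% as reported, was 70.1% by the brightest probe, on odd and on even spots alike, 63.2% with normexp, and 40.9% without the 4 brightest. The combined share of the families, 23.1% as reported, was 21.6% by the brightest probe, 21.8% on odd spots, 21.5% on even spots, 22.3% with normexp and 53.1% without the 4 brightest. Hairpins with both arms detected numbered 12 with at least 0.5 of the spots of a probe, 11 at 5 times the error and 38 above the negative controls, against 21. Without the 4 brightest, miRNAs above all 5 other arrays numbered 51 against 11, and those below 24 against 43. The cause of these shifts was not tested. Detected markers numbered 11 to 16 under the alternatives, against 13 of 66. Of 75 ranks of the 25 brightest under 3 alternatives, 55 moved by at most 1 place, and 24 or 25 of the 25 remained in that set. Signals of odd and even spots correlated at 0.996 (Spearman, across miRNAs). Signals below about 12.5 lie where detection depends on the rule.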
